A study of Mus musculus with 19 samples.

Results

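The genes described here are the canonical histone genes of the mouse, which encode the linker histone H1 and the core histones H2A, H2B, H3 and H4. They were chosen by a symbol pattern from the protein-coding genes of the RefSeq annotation on chromosomes 1 to 19, X and Y, and 70 of 21887 genes met the rule, with the unrelated gene H13 left out. The rule takes the gene families by name, so a few genes that are not replication-dependent are among them, such as the replacement linker histones H1f0 and H1f10 and the germ-cell genes H1f6, H1f7, H1f8, H2ac1 and H2bc1. Other replacement variants, such as H2ax and the H2A.Z genes, fall outside it. H4bc24, H2aw and H2aj also fall outside it, so the counts by family and cluster leave them out.

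The data are peak lists of chromatin immunoprecipitation and sequencing (ChIP-seq) with an antibody to CBFA2T2 in NE-4C cells, a mouse neural stem cell line that lacks p53. H3f3a, a gene for the variant H3.3, had been knocked out in all cells of the study. H3.3K27M cells stably expressed an HA-tagged H3.3 in which a lysine of the tail is replaced by methionine, the oncohistone of diffuse midline glioma. H3.3WT cells carried the wild-type H3.3 in its place, also HA-tagged and stably expressed. The labels name no change to H3f3b, the other H3.3 gene, and do not say whether a line was 1 clone. The series has 19 samples of 3 genotypes. The third genotype, H3.3WT with Cbfa2t2 also knocked out, is not analysed here, so no CBFA2T2 ChIP from cells without the protein stands beside these peaks. There was 1 CBFA2T2 library per genotype, with 8272 peaks in H3.3K27M and 6920 peaks in H3.3WT. With no replicates, nothing was tested between the genotypes, and values of both lists stand side by side. The files hold no read counts, so the depth is unknown, and a peak that is absent from a list was not detectable at that list's threshold. Peaks do not measure expression. Of 5 neural stem cell genes looked up, Nes, Vim and Sox1 had a peak in H3.3K27M and only Sox1 in H3.3WT. Sox2 and Msi1 had none. Of all protein-coding genes, 28.6% had a peak summit within 1 kb of an end in H3.3K27M and 24.8% in H3.3WT.

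Replication-dependent histone genes lie in dense clusters, have no introns, and are transcribed in S phase, when new DNA has to be packed into nucleosomes. Their mRNAs are not polyadenylated and end in a stem-loop that the protein SLBP binds. H2A and H2B genes are often arranged head to head around a shared promoter that holds CCAAT boxes, the site of the factor NF-Y, and octamers, the site of POU2F1 (OCT-1). CBFA2T2, also called MTGR1, is a corepressor of the ETO family that is brought to DNA by transcription factors and recruits histone deacetylases.

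The promoters below show some of the elements found in these families, in genes with and without a CBFA2T2 peak. No H2A promoter is printed. Each runs 5′ to 3′ on the strand of its gene from 250 bases before to 50 bases after the annotated start (RefSeq, GRCm38.p6, the assembly of mm10). Capitals mark the CCAAT box, the TATA box TATAAA, the octamer ATTTGCAT or the box AAACACA known from H1 promoters, on either strand, and each run of capitals is 1 match. H1f2 had a peak in H3.3K27M alone, H1f6 had none, H2bc18 and H3c15 had peaks in both lists, H2bc1 had none, and H4f16 had a peak in both lists and no match.
H1f2 (chr13:23738557-23738856, plus strand): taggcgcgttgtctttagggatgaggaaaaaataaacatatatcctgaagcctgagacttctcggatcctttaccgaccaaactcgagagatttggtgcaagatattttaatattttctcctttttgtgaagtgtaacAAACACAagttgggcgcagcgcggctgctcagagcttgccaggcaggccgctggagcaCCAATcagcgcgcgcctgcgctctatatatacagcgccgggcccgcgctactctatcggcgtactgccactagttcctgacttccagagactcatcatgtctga
H1f6 (chr13:23695561-23695860, plus strand): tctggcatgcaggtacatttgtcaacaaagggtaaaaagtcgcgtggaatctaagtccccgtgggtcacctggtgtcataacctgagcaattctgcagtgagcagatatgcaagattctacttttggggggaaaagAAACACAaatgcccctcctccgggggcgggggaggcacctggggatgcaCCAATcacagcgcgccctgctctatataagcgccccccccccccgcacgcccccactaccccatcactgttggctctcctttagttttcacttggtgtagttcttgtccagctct
H2bc18 (chr3:96269450-96269749, plus strand): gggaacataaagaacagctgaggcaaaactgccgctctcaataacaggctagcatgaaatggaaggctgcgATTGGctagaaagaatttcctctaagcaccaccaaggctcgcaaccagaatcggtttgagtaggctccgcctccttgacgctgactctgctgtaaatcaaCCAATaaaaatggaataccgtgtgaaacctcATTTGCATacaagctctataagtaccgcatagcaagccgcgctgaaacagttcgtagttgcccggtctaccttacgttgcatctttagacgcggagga
H2bc1 (chr13:23934107-23934406, minus strand): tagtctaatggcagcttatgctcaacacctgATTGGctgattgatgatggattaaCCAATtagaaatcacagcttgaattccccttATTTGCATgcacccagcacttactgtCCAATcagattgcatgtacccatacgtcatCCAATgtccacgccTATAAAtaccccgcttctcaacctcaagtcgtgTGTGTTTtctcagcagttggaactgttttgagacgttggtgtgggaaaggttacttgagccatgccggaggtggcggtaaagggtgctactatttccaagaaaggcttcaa
H3c15 (chr3:96239078-96239377, minus strand): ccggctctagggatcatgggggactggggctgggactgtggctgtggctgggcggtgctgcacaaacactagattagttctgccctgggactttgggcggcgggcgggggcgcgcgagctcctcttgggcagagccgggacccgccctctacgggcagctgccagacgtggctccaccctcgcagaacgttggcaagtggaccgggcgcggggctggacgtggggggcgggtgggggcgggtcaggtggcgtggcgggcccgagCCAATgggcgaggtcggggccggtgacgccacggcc
H4f16 (chr6:136804382-136804681, minus strand): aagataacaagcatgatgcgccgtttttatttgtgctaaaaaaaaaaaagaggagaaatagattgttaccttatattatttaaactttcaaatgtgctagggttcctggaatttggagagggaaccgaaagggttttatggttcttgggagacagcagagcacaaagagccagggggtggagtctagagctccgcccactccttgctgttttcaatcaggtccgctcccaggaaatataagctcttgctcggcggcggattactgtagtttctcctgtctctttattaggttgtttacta

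A gene was counted as marked if the summit of a peak lay within 1 kb of either of its annotated ends. By that count 56 of the 70 histone genes (80%) were marked in H3.3K27M and 53 (75.7%) in H3.3WT. Among all protein-coding genes the share was 28.6% in H3.3K27M and 24.8% in H3.3WT. Histone genes are short, with a median span of 494.5 bp, and 60 of the 70 span at most 1000 bp. Of the 1517 other protein-coding genes of at most 1000 bp, 27 (1.78%) were marked in H3.3K27M and 24 (1.58%) in H3.3WT. Of the 4968 other genes of at most 5000 bp, 787 (15.8%) were marked in H3.3K27M and 718 (14.5%) in H3.3WT. Both shares of the histone genes therefore stood above those of all genes and of both sets of short genes, which were matched by length alone. This difference was not tested, because histone genes share peaks. In both lists 49 histone genes were marked, 7 were marked in H3.3K27M alone, 4 in H3.3WT alone and 10 in neither. Of the 70 genes, 10% were thus marked in H3.3K27M alone and 5.71% in H3.3WT alone, and of all protein-coding genes 6.39% in H3.3K27M alone and 2.6% in H3.3WT alone. The order of these counts turned round at some settings and held at others. With the same number of peaks taken from each list, 2 histone genes were marked in H3.3K27M alone and 10 in H3.3WT alone. At a fold of at least 5 they were 7 in H3.3K27M and 10 in H3.3WT. The order held at a −log10 q of at least 5, with 10 in H3.3K27M alone and 8 in H3.3WT alone. It also held with a window of 500 bp (9 and 8) or 3 kb (5 and 0). The counts were 7 and 0 when any base of a peak within 1 kb counted, and 5 and 4 for clustered genes alone.

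Because neighbours share peaks, the marks came from fewer binding regions than genes. The 56 genes marked in H3.3K27M were reached by 45 distinct peaks, and the 53 genes marked in H3.3WT by 43. In H3.3K27M 16 peaks reached 2 histone genes each, and in H3.3WT 15 peaks reached 2 and 2 peaks reached 3. Each peak carries a fold enrichment, the ratio of ChIP signal to local background at the summit, and a −log10 q, the size of its false discovery rate on a log scale. Both are values of the authors' peak caller and describe a peak within its own list, so a greater value in 1 list is not a measured change between genotypes. The peaks at histone genes were of middling height. Their median fold was 6.37 in H3.3K27M (range 3.42 to 13.01) and 6.01 in H3.3WT (range 4.01 to 11.4). Peaks at the ends of other genes had medians of 6.03 in H3.3K27M (5293 peaks) and 6.64 in H3.3WT (4505 peaks), and reached 85.5 fold in H3.3K27M and 108 in H3.3WT. The median −log10 q was 8.38 at histone genes and 11.7 at other gene ends in H3.3K27M, and 7.17 at histone genes and 12.0 at other gene ends in H3.3WT. Above the 75th percentile of fold within the list stood 9 histone peaks of H3.3K27M and 2 of H3.3WT.

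**Figure D1:**
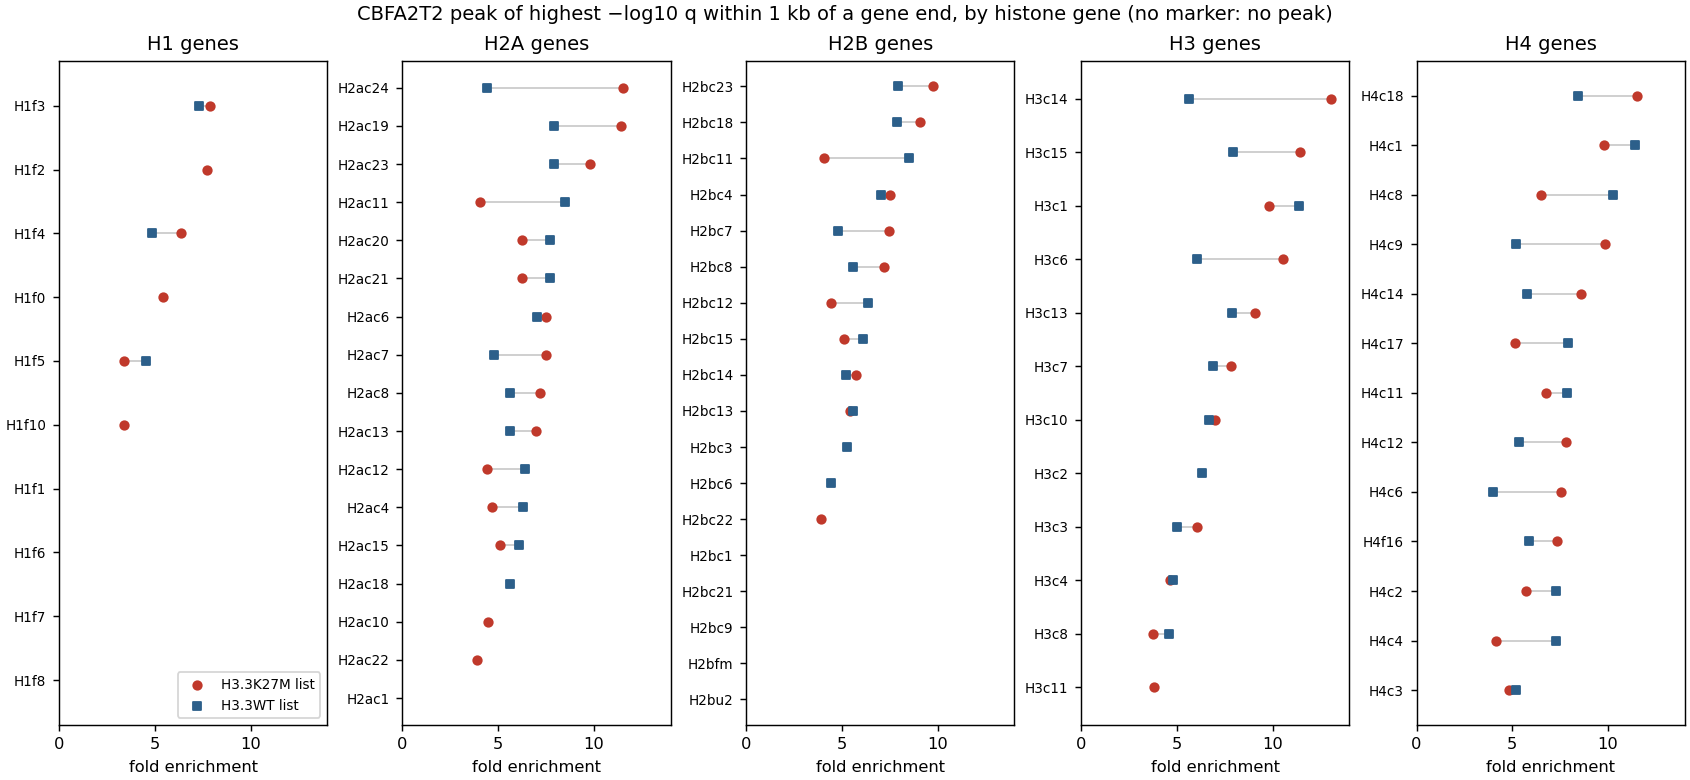
Fold enrichment (x axis) of the CBFA2T2 peak with the highest −log10 q within 1 kb of either end of each histone gene, with H3.3K27M as circles and H3.3WT as squares, 1 library each, and genes (y axis) grouped by histone type. All 13 H4 genes carry both symbols, whereas 4 of the 10 H1 genes carry none.

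H4 was the family with the most complete marking. All 13 H4 genes, which encode the partner of H3 in the nucleosome core, had a peak in both lists, at 13 distinct peaks in H3.3K27M and 14 in H3.3WT. The median fold of these peaks was 7.32 in H3.3K27M and 6.59 in H3.3WT. H4f16 (gene ID 320332, chr6:136803993-136804431) lies outside the clusters, near H2aj (chr6:136808248-136810074), which the symbol rule leaves out. H4f16 had the H4 peak with the highest −log10 q, at 36.9 and 7.32 fold in H3.3K27M and 21.8 and 5.89 fold in H3.3WT. H4c1 shared its peak with H3c1, its neighbour in the second cluster of chromosome 13, and this peak had 9.80 fold in H3.3K27M, against 11.4 fold in H3.3WT. It was the highest peak at any histone gene in the H3.3WT list. H4c18 had 11.5 fold in H3.3K27M and 8.42 in H3.3WT. H4c9 had 9.86 fold in H3.3K27M, against 5.18 fold in H3.3WT. H4c8 had 6.49 fold in H3.3K27M and 10.3 in H3.3WT, where it was the second highest of the histone peaks. The tRNA gene n-TMcat9 and the noncoding RNA gene Gm11335 also have an end within 1 kb of the H4c8 summit in both lists. The order of the H4 genes by fold therefore differed between the lists.

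At the low end of the H4 family, H4c4 had a −log10 q of 4.47 in H3.3K27M and 9.18 in H3.3WT. H4c3 had 5.33 in H3.3K27M and 4.18 in H3.3WT, and H4c6 had 9.27 in H3.3K27M and 2.44 in H3.3WT. The remaining H4 genes lay between these and the highest. H4c2 had 5.74 fold in H3.3K27M, against 7.30 fold in H3.3WT, and H4c11 had 6.78 in H3.3K27M and 7.88 in H3.3WT. H4c12 had 7.82 fold in H3.3K27M and 5.37 in H3.3WT, and H4c14 had 8.56 in H3.3K27M and 5.77 in H3.3WT. H4c17 had 5.15 fold in H3.3K27M and, at the peak nearest to it, 5.73 fold in H3.3WT.

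Of the 12 H3 genes, which encode the replication-dependent H3.1 and H3.2 proteins, 11 were marked in each list, and every one had a peak in at least 1 list. They had 11 distinct peaks with a median of 7.82 fold in H3.3K27M and 14 with a median of 6.15 fold in H3.3WT. H3c15 (gene ID 97114, chr3:96238479-96239127) held the summit of the histone peak with the highest −log10 q in either list, 50.3 in H3.3K27M and 25.5 in H3.3WT. That peak had 11.4 fold at chr3:96237834-96240549 in H3.3K27M and 7.90 fold at chr3:96237834-96240535 in H3.3WT, and it covered H2ac19 as well. H3c14, in the same cluster, had the highest fold of all histone peaks in H3.3K27M at 13.01, against 5.61 fold in H3.3WT. H3c6 had 10.5 fold in H3.3K27M and 6.01 in H3.3WT. H3c13 had 9.05 fold in H3.3K27M and, at its own summit, 6.78 fold in H3.3WT. H3c15, H3c14, H3c6 and H3c13 all had the greater value in H3.3K27M, whereas H3c1, named above with H4c1, had the greater value in H3.3WT.

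The other H3 genes had lower peaks in H3.3K27M. H3c7 had 7.82 fold in H3.3K27M, against 6.86 fold in H3.3WT, and H3c10 had 6.96 in H3.3K27M and 6.67 in H3.3WT. H3c3 had 6.03 fold in H3.3K27M and 5.01 in H3.3WT, and H3c4 had 4.64 in H3.3K27M and, at its own summit, 4.75 in H3.3WT. H3c8 had 3.76 fold in H3.3K27M and 4.56 in H3.3WT. H3c8 had the lowest −log10 q of the family in H3.3K27M at 2.38, against 3.22 in H3.3WT. H3c11 was marked in H3.3K27M alone, at 3.79 fold and a −log10 q of 3.07. H3c2 was marked in H3.3WT alone, at 5.27 fold and a −log10 q of 4.27 at its own summit, while the nearest H3.3K27M summit lay 1214 bp away at the neighbouring H2ac4.

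Of the 17 H2A genes, 15 were marked in H3.3K27M by 17 distinct peaks with a median of 6.25 fold. In H3.3WT 14 were marked by 15 distinct peaks with a median of 6.28 fold. H2A pairs with H2B in the nucleosome, and the H2A genes shared many of their peaks with an H2B neighbour. H2ac19 shared the peak of H3c15 described above. H2ac23 and H2bc23 shared a peak of 9.77 fold in H3.3K27M and 7.91 in H3.3WT. H2ac20 and H2ac21, which lie side by side on chromosome 3, shared a peak of 6.25 fold in H3.3K27M, against 7.73 fold in H3.3WT. H2ac11 and H2bc11 shared a peak of 4.06 fold in H3.3K27M and 8.50 in H3.3WT. The peak of H2ac23 thus had the greater fold in H3.3K27M, and those of H2ac20 and H2ac11 had it in H3.3WT.

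H2ac24 lay within reach of the 11.5 fold peak of H4c18 in H3.3K27M, and its nearest summit there had 8.26 fold, against 4.41 fold in H3.3WT. The nearest summits of both lists lay inside the neighbouring protein-coding gene H4bc24, which the symbol rule leaves out. The H3.3WT peak did not overlap H2ac24 itself. H2ac6 and H2bc4 shared a peak of 7.52 fold in H3.3K27M, against 7.03 fold in H3.3WT, and H2ac7 and H2bc7 shared one of 7.48 in H3.3K27M and 4.80 in H3.3WT. H2ac8 and H2bc8 shared a peak of 7.17 fold in H3.3K27M and 5.60 in H3.3WT, and H2ac12 and H2bc12 shared one of 4.41 in H3.3K27M and 6.38 in H3.3WT. These pairs lie head to head except H2ac6 with H2bc4, for which no strand was available. H2ac15 and H2bc15 shared a peak of 5.10 fold in H3.3K27M, against 6.09 fold in H3.3WT, and H2ac13 and H2bc13 shared one of 5.43 in H3.3K27M and 5.60 in H3.3WT. H2ac4 had 4.69 fold in H3.3K27M and 6.28 in H3.3WT. Among these genes the lowest −log10 q values were 3.305 at H2ac4 in H3.3K27M, and 3.24 at H2ac24 and 3.57 at H2ac7 in H3.3WT. Only H2ac1, which encodes the testis histone TH2A, had no peak in either list.

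Of the 18 H2B genes, 11 were marked in H3.3K27M and 12 in H3.3WT. Their 12 distinct peaks in H3.3K27M had a median of 5.59 fold, and their 13 in H3.3WT a median of 6.09 fold. H2bc18 (gene ID 319189, chr3:96269700-96270192) had the highest −log10 q of the family, 21.0 in H3.3K27M and 12.7 in H3.3WT. In H3.3K27M that value belongs to a wide peak whose summit lay in H3c13, 850 bp from H2bc18, while in H3.3WT H2bc18 had a summit of its own at 7.88 fold. H2bc14 had 5.74 fold in H3.3K27M, against 5.22 fold in H3.3WT. Most of the rest of the family was marked through peaks shared with H2A genes. H2bc1, H2bc9, H2bfm and H2bu2 had no peak in either list. H2bc21 was not marked in either list, but the 6.25 fold H3.3K27M peak of H2ac20 and H2ac21 overlapped it, with a summit 1100 bp away.

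The linker histone H1, which binds DNA at the entry and exit of the nucleosome, had the smallest share of marked genes when germ-cell genes were counted. In H3.3K27M this share was 60%, close to the 61.1% of H2B genes, and in H3.3WT it was 30%, against 66.7% of H2B genes. Of 10 H1 genes, 6 were marked in H3.3K27M by 7 peaks with a median of 5.43 fold, and 3 in H3.3WT by 5 peaks with a median of 4.85 fold. H1f3 had 7.86 fold in H3.3K27M and 7.29 in H3.3WT, and H1f4 had 6.37 in H3.3K27M and 4.85 in H3.3WT. H1f5 had 3.42 fold in H3.3K27M and 4.57 in H3.3WT, both weak, with a −log10 q of 1.69 in H3.3K27M and 2.88 in H3.3WT. The H3.3K27M peak lay beyond the 3′ end of H1f5 and overlapped neither the gene nor its H3.3WT peak. H1f2 (gene ID 50708, chr13:23738807-23739531) had a peak in H3.3K27M alone, 1199 bp wide, with 7.71 fold and a −log10 q of 12.96. The nearest H3.3WT summit lay 5893 bp from H1f2. The replacement linker histone H1f0 had 5.43 fold in H3.3K27M alone, and another peak of 4.67 fold within its window also reached the neighbouring gene Gcat. H1f10 had 3.42 fold in H3.3K27M alone with a −log10 q of 1.69, near the smallest in the list. H1f1, H1f6, H1f7 and H1f8 had no peak in either list. All of these but H1f1 are germ-cell genes, so the rank of H1 below H2B in H3.3K27M depends on counting such genes.

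The genes marked in neither list were mostly those used in germ cells. H1f6 and H1f7 are linker histones of the testis, H1f8 is that of the oocyte, H2ac1 and H2bc1 encode the testis histones TH2A and TH2B, and H2bfm is a testis H2B variant gene on the X chromosome. None of these 6 genes was marked in either list. Of all protein-coding genes 28.6% were marked in H3.3K27M and 24.8% in H3.3WT, so most genes outside the histone families were unmarked too. Of the other 64 histone genes, 56 were marked in H3.3K27M, 53 in H3.3WT and 60 in at least 1 list, which left H1f1, H2bc9, H2bc21 and H2bu2. This grouping by use was made after the values were seen. H2ac1 and H2bc1 lie at the far end of the second cluster of chromosome 13, and the summit nearest to H2bc1 was 172362 bp away in H3.3K27M and 172319 bp away in H3.3WT. H1f6, by contrast, lies among marked genes, with the nearest summit 1833 bp away in H3.3K27M and 1949 bp away in H3.3WT.

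**Figure D2:**
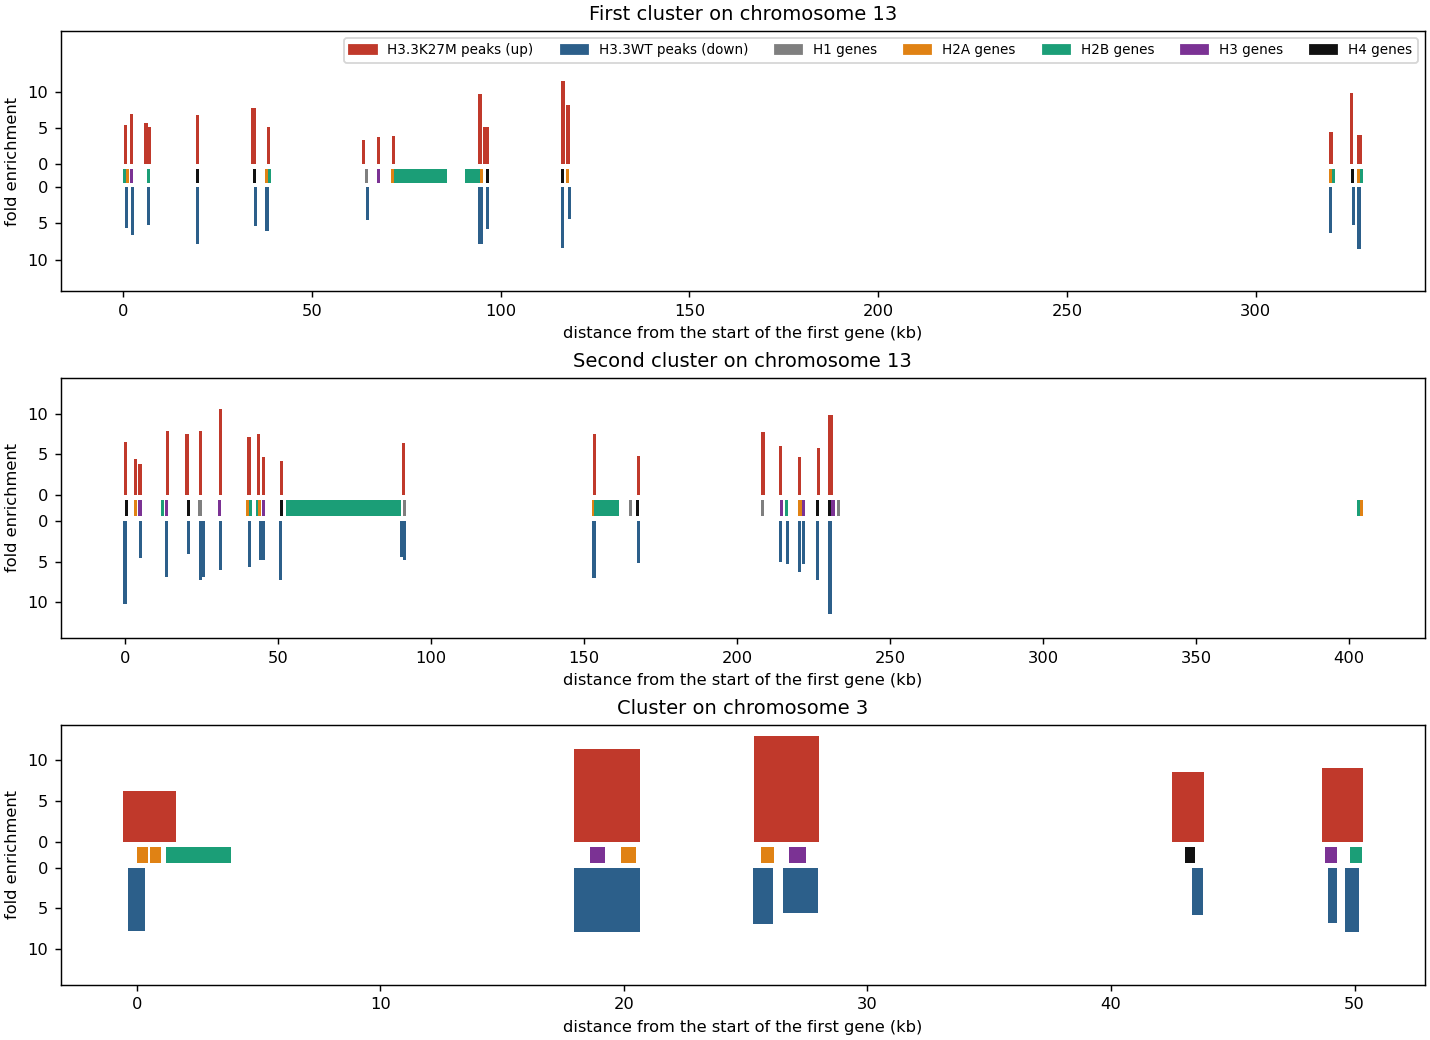
CBFA2T2 peaks at histone genes along the 3 clusters, with fold enrichment of H3.3K27M peaks drawn upward and of H3.3WT peaks downward (y axis), distance from the first gene in kb (x axis), and genes as boxes coloured by histone type between them. Peaks and genes narrower than 1/400 of a cluster are drawn at that width, peaks not at a histone gene are not drawn, and the peaks of the chromosome 3 cluster in H3.3K27M have a median width of 2175 bp.

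Chained over gaps of up to 300 kb, 63 of the 70 genes fell into 3 clusters, and 7 genes lay in none of them. These 7 are called isolated, although histone genes outside the symbol rule can lie near them. The first cluster on chromosome 13 (chr13:21715711-22043658) holds 22 genes in 328 kb. All 22 were marked in H3.3K27M by 17 peaks, and 19 in H3.3WT by 14 peaks. The second cluster (chr13:23531044-23934913), 1487 kb further on, holds 31 genes in 404 kb. There 23 were marked in H3.3K27M by 19 peaks and 24 in H3.3WT by 21 peaks. Peaks at the histone genes of these short stretches made up 36 of the 341 peaks on chromosome 13 in H3.3K27M (10.6%) and 35 of 284 in H3.3WT (12.3%). In the second cluster all 19 peaks of H3.3K27M and 21 of 22 peaks of H3.3WT lay at histone genes, and in the first cluster 17 of 22 peaks of H3.3K27M and 14 of 16 of H3.3WT did.

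The cluster on chromosome 3 (chr3:96219885-96270192) holds 10 genes in 50.3 kb, of which 8 were marked in H3.3K27M and 9 in H3.3WT. Its 5 peaks in H3.3K27M had a median width of 2175 bp and a median of 9.05 fold, and its 7 peaks in H3.3WT had a median width of 708 bp and a median of 6.94 fold. In H3.3K27M a single peak of 2657 bp covered H2ac18 and H3c14, while H3.3WT had peaks of 805 and 1448 bp over the same stretch. Likewise 1 peak of 1665 bp covered H3c13 and H2bc18 in H3.3K27M, where H3.3WT had peaks of 371 and 572 bp. At H2ac19 and H3c15 the peak was 2716 bp wide in H3.3K27M and 2702 bp wide in H3.3WT. Several promoters in these clusters are near copies of each other. Within the promoter windows, H3c15 and H3c14 share an identical run of 231 bases, H2ac19 and H2ac18 one of 219 bases, and H4c17 and H4c18 one of 285 bases. How reads that map to several places were counted is not given in the sources used here, so the values of these genes are uncertain. Runs of at least 50 bases occurred in 6 of 2071 pairs and touched 11 genes.

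Of the 7 isolated genes, 3 were marked in H3.3K27M (H4f16, H1f0 and H1f10) and 1 in H3.3WT (H4f16). The isolated H2bu2 had its nearest summit 5364 bp away in H3.3K27M and 5135 bp away in H3.3WT.

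Most summits at histone genes lay inside the annotated gene, downstream of its start. In H3.3K27M 38 of 45 summits (84.4%) fell inside the span of a histone gene, and in H3.3WT 34 of 43 (79.1%). At other gene ends, 65.3% of summits in H3.3K27M and 61.4% in H3.3WT fell inside a protein-coding gene. Where a start site with strand was available, the median summit lay 170 bp downstream of the nearest histone start in H3.3K27M (42 peaks) and 122.5 bp downstream in H3.3WT (40 peaks). Downstream of the start lay 90.5% of these summits in H3.3K27M and 85% in H3.3WT. At other gene ends the median was 7 bp upstream in H3.3K27M and 17 bp upstream in H3.3WT, with 46.7% downstream in H3.3K27M and 41.9% in H3.3WT. Other genes of at most 1000 bp had medians of 5 bp upstream in H3.3K27M (24 peaks) and 5.5 bp upstream in H3.3WT (20 peaks).

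**Figure D3:**
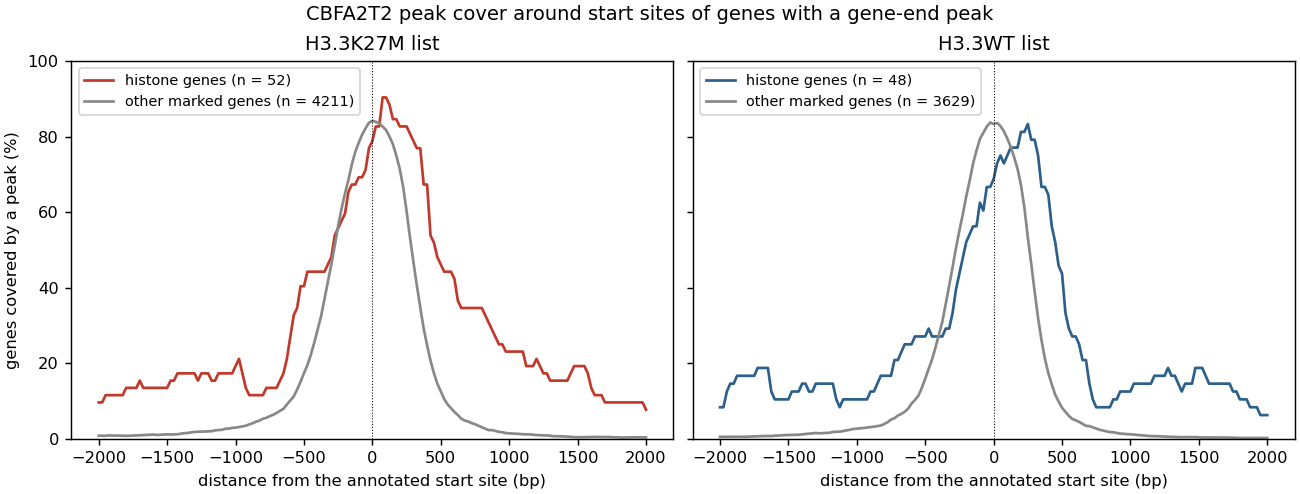
Percentage of marked genes (y axis) whose sequence at each distance from the annotated start (x axis, bp, downstream positive) lay in a CBFA2T2 peak, for H3.3K27M (left) and H3.3WT (right), 1 library each. In H3.3K27M the curve of histone genes is highest at 75 and 100 bp downstream, at 90.4%, and in both lists it stays above that of other marked genes further downstream.

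The cover of the peaks was shifted in the same direction. At 250 bp downstream of the start, 82.7% of the 52 marked histone genes with a known start lay under a peak in H3.3K27M and 83.3% of 48 in H3.3WT. For other marked genes these shares were 60.3% in H3.3K27M and 53.3% in H3.3WT. At 500 bp downstream they were 46.2% for histone genes and 12.6% for other marked genes in H3.3K27M, and 43.8% for histone genes and 8.18% for other marked genes in H3.3WT. At 250 bp upstream the histone genes were at 55.8% in H3.3K27M and 43.8% in H3.3WT, and other marked genes at 56.4% in H3.3K27M and 55.1% in H3.3WT. At 500 bp upstream the histone genes were again higher, at 40.4% in H3.3K27M and 27.1% in H3.3WT, against 17.3% for other marked genes in H3.3K27M and 15.9% in H3.3WT. The gap to other marked genes was wider at 500 bp downstream than at 500 bp upstream in both lists. Peaks of neighbouring histone genes count in the cover beyond a gene's own end.

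**Figure D4:**
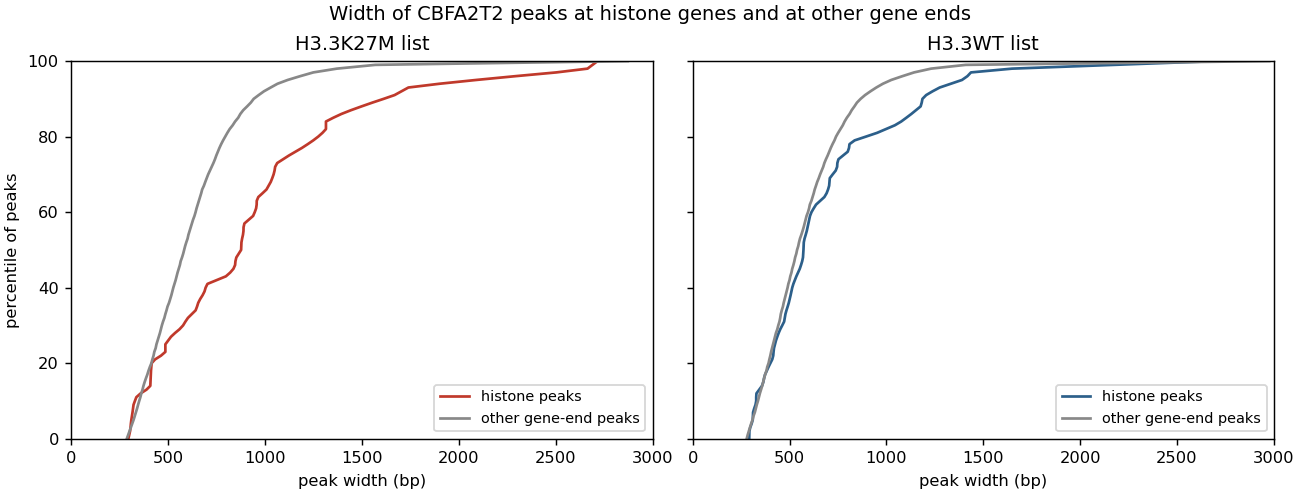
Percentile (y axis) of CBFA2T2 peaks up to each width in bp (x axis), for peaks at histone genes and at other gene ends, in H3.3K27M (left) and H3.3WT (right), 1 library each. The curve of histone peaks lies to the right in H3.3K27M, with a median width of 876 bp against 582 bp, and less so in H3.3WT, with 572 bp against 539 bp.

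The peaks at histone genes were wider than those at other gene ends in the H3.3K27M list, with a median width of 876 bp against 582 bp. In H3.3WT the medians were 572 bp and 539 bp. At least 1000 bp wide were 16 of 45 histone peaks in H3.3K27M (35.6%) and 8 of 43 in H3.3WT (18.6%). At other gene ends these shares were 7.80% in H3.3K27M and 5.59% in H3.3WT. Among peaks with a −log10 q of 10 to 20, the median width was 1031 bp at histone genes (11 peaks) and 581 bp at other gene ends in H3.3K27M. In H3.3WT it was 671.5 bp at histone genes (8 peaks) and 533 bp at other gene ends. The difference in width was therefore also present among peaks of like −log10 q.

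Some peaks lay over more than 1 gene, and 13 peaks of H3.3K27M and 9 of H3.3WT overlapped at least 2 histone genes. Among the 9 head-to-head pairs of an H2A and an H2B gene, the starts are 163 to 280 bp apart. A single peak spanned both starts in 7 pairs in H3.3K27M and in 6 in H3.3WT. The pair of H2ac1 and H2bc1 had no peak. The pair of H2ac22 and H2bc22 had a peak of 3.92 fold in H3.3K27M alone, which lay over H2ac22 and ended before the start of H2bc22. Within the spanned pairs of H3.3K27M the summit lay in the H2A gene in 4 and in the H2B gene in 3. In H3.3WT it lay in the H2A gene in 2, in the H2B gene in 2 and between the genes in 2. Neither gene of a pair thus held the summit in all cases, and the summit lay within the shared promoter only in H3.3WT, at H2ac13 with H2bc13 and at H2ac8 with H2bc8.

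Peaks at histone genes were compared with the other list by an overlap of at least 1 bp. In H3.3K27M 37 of 45 did (82.2%, 95% Wilson interval 68.7 to 90.7, counting error only), and in H3.3WT 39 of 43 (90.7%, interval 78.4 to 96.3). When the overlap had to cover 50% of both peaks, the shares of histone peaks were 48.9% in H3.3K27M and 51.2% in H3.3WT. This stricter criterion was not applied to other gene ends. By the overlap of at least 1 bp, the shares at other gene ends were 74.6% in H3.3K27M and 88.1% in H3.3WT. Both intervals given above take in the value at other gene ends. Among peaks with a −log10 q of 5 to 10, 13 of 15 histone peaks of H3.3K27M were shared, against 60.9% at other gene ends, and 19 of 19 of H3.3WT, against 82.2%. From a −log10 q of 10 upward the shares were alike, at 94.4% of histone peaks and 93.6% of other gene-end peaks in H3.3K27M, and 100% and 98.7% of these peaks in H3.3WT. Under a −log10 q of 5 they were 58.3% at histone genes and 35.3% at other gene ends in H3.3K27M, and 69.2% at histone genes and 63.1% at other gene ends in H3.3WT. The unshared histone peaks were weak, with a median −log10 q of 3.48 in H3.3K27M and 3.67 in H3.3WT. The peak at H1f2 was the strongest of them.

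Of the 7 genes marked in H3.3K27M alone, H1f2 and H1f0 had a −log10 q above 5 and the others did not. These others were H3c11, H2ac22 and H2bc22 (1 shared peak), H2ac10 and H1f10. H2ac10 had 4.48 fold in H3.3K27M, and the nearest H3.3WT summit lay 1150 bp away at H3c8. Of the 4 genes marked in H3.3WT alone, H2bc6 had 4.44 fold at a peak that also reached H1f4, while the nearest H3.3K27M summit lay 1228 bp away at H1f4. The annotated span of H2bc6 is 37455 bp and that of H2bc22 is 14079 bp, so a peak at 1 end of these genes need not lie at the histone coding sequence. H2bc3 had 5.27 fold in H3.3WT, and the nearest H3.3K27M summit lay 1229 bp away at H3c3. H2ac18 had 6.94 fold at its own summit in H3.3WT. It was not without signal in H3.3K27M, where the 13.01 fold peak of H3c14 overlapped it with a summit 1101 bp from its end. With H3c2 at 1214 bp, all 4 genes had an H3.3K27M summit within 1229 bp. Just inside the 1 kb limit were H2bc18 at 850 bp and H2ac19 at 774 bp in H3.3K27M, and H2ac19 at 787 bp in H3.3WT. Just outside were H2bc9 at 1078 bp, H2bc21 at 1100 bp and H2ac18 at 1101 bp in H3.3K27M, followed by H3c2, H2bc6 and H2bc3 as given above, and H2bc21 at 1146 bp and H2ac10 at 1150 bp in H3.3WT.

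Promoter elements were counted in the windows of 300 bp for the 65 histone genes with an entry in the RefSeq table, on both strands. H2bc21, H4c14, H3c7, H2bc4 and H3c1 had no entry. CCAAT occurred in 53 of the 65 windows (81.5%), against 39.0% of 17492 promoters of protein-coding genes. It was in all 17 H2A, all 16 H2B and all 10 H3 windows, in 7 of 10 H1 windows and in 3 of 12 H4 windows. TATAAA occurred in 35 windows (53.8%), against 13.3% of all promoters. Other marked genes held it in 5.94% of windows in H3.3K27M and 5.98% in H3.3WT. ATTTGCAT occurred in 12 windows (18.5%), 6 of H2A and 6 of H2B genes, against 1.71% of all promoters. AAACACA occurred in 9 windows (13.8%), 5 of them of H1 genes, against 6.13% of all promoters. The windows of head-to-head H2A and H2B genes overlap, so their counts are not independent.

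Some elements that are more frequent in the promoters of other marked genes than in all promoters were not found in those of the histone genes. CCGGAAGT, an ETS site, was in 12.8% of the windows of other genes marked in H3.3K27M and 13.7% of those marked in H3.3WT, and in 0 of 65 histone windows. CACGTG, the E-box of the MYC and USF factors, was in 12.0% of windows in H3.3K27M and 12.3% in H3.3WT, and in 0 histone windows. GCGCATGC, the core of the NRF1 site, was in 6.66% of windows in H3.3K27M and 6.85% in H3.3WT, and in 0 histone windows. Of the 17492 promoters of protein-coding genes, 5.29% held CCGGAAGT, 7.90% held CACGTG and 3.61% held GCGCATGC. ATTTGCAT and GCGCATGC share the letters GCAT, but no histone window held GCGCATGC, so no match was counted under both. The absence of a match says only that these letters are not in the 300 bp.

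CCAAT was in 45 of the 56 windows of genes with a peak in either list (80.4%) and in 8 of the 9 windows of genes with none, and TATAAA was in 31 of the 56 and 4 of the 9. In the promoters printed above, H1f2 holds AAACACA 112 bases and CCAAT 54 bases upstream of its start, and H1f6 holds the same motifs 114 and 65 bases upstream. Only H1f2 of the pair had a peak. H2bc18 has its octamer 48 bases upstream, and H2bc1, which had no peak, holds an octamer 164 bases upstream, TATAAA 94 bases upstream and 3 copies of CCAAT with 1 more on the other strand. H3c15 holds its only match, CCAAT, 14 bases downstream of its start. H4f16, with a peak in both lists, holds none of the motifs.

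Genes that make or regulate histone mRNA were looked up as a list of 21. Of these 16 were marked in H3.3K27M and 13 in H3.3WT, and the 13 were marked in both. Of all protein-coding genes 28.6% were marked in H3.3K27M and 24.8% in H3.3WT. In the 3′ end machinery, Sympk, which encodes the scaffold symplekin, had 32.3 fold in H3.3K27M, against 20.7 fold in H3.3WT, above every histone gene. Slbp, which encodes the stem-loop binding protein, had 8.02 fold in H3.3K27M and 6.35 in H3.3WT. Cpsf2 had 10.2 fold in H3.3K27M and 10.7 in H3.3WT, and the endonuclease gene Cpsf3 had 4.25 in H3.3K27M and 7.53 in H3.3WT. Zfp473, the mouse ortholog of human ZNF473 (ZFP100), had 6.49 fold in H3.3K27M and 10.3 in H3.3WT. Eri1, which encodes an exonuclease acting on the stem-loop, had 4.53 fold in H3.3K27M, against 7.88 fold in H3.3WT. Lsm10, of the U7 particle, had 6.04 fold in H3.3K27M alone, and Lsm11 and Cstf2 had no peak.

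Among the transcription factors, Npat, the coactivator that cyclin E and CDK2 phosphorylate at histone clusters, had 4.25 fold in H3.3K27M and 3.47 in H3.3WT. Hinfp, which encodes the activator of H4 genes, had 6.34 fold in H3.3K27M, against 13.3 fold in H3.3WT. Casp8ap2, whose protein FLASH acts with NPAT, had 5.80 fold in H3.3K27M and 5.02 in H3.3WT, and Yy1 had 7.08 in H3.3K27M and 12.3 in H3.3WT. Pou2f1 had 7.55 fold in H3.3K27M and 2.98 in H3.3WT, and E2f4 had 5.69 in H3.3K27M and 5.37 in H3.3WT. Of the subunits of NF-Y, Nfya had 5.56 fold in H3.3K27M and 6.97 in H3.3WT, Nfyb had 8.35 fold in H3.3K27M alone and Nfyc had no peak. E2f1 had 4.28 fold in H3.3K27M alone, and Ccne1 and Cdk2 had no peak. After these values were seen, Rnu7, the gene of the U7 small nuclear RNA that guides the cut of histone mRNA, was added, and it had 11.1 fold in H3.3K27M, against 6.13 fold in H3.3WT. The H2A variant genes H2ax and H2az1 were looked up in the same way. H2ax had 6.57 fold in H3.3K27M and 5.13 in H3.3WT, and H2az1 had 7.73 in H3.3K27M and 7.67 in H3.3WT. H2aw, H2aj, H2az2 and H4bc24 were looked up as well. All 7 genes added afterwards were marked in both lists, while 28.6% of protein-coding genes were marked in H3.3K27M and 24.8% in H3.3WT. The 7 were picked with the values known, and Rnu7 is not a protein-coding gene. The peaks of H4bc24 are those given above as nearest to H2ac24.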

How the data were processed

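ChIP-seq peak lists of CBFA2T2 were used for 2 of the 19 samples, 1 library per genotype, grouped by the genotype and antibody in the labels. All other libraries of the series, inputs included, are not analysed here. Trim Galore, MACS2 and mm10 are named in the submitters' processing notes, without versions. Which aligner was used, how duplicates were handled and how the caller was set are not given in the sources used here. A deposited peak has a fold enrichment (a ratio of ChIP signal to local background), a −log10 p, a −log10 q and a score, all made by the authors' peak caller. The deposited score is −log10 q multiplied by 10 and truncated, and was not used, nor was the −log10 p. The smallest deposited −log10 q was 1.31 in H3.3K27M and 1.33 in H3.3WT, so weaker sites were removed before deposit. Read counts are not part of the lists, which leaves the depth unknown, and no ratio between lists was formed.

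Gene spans and types came from RefSeq (GRCm38.p6), strands and promoters from a RefSeq promoter table. A gene was marked by a summit within 1 kb of either end, which cannot tell a start from an end. Its peak of highest −log10 q represents it, or the nearest summit where stated. Peaks were shared at an overlap of at least 1 bp. Named genes were, by rule, the extremes of each histone type by −log10 q, all genes not marked in both lists, those at the 5 highest peaks by fold, at the window's edge or outside the clusters, and regulators with a peak, and most other members were added. Members and lists were chosen with earlier results of these data known. Alternatives were thresholds of 5 for −log10 q or fold, equal peak numbers, windows of 500 bp and 3 kb, other overlap criteria, clustered genes alone and short genes as background. The assignment was tested on simulated peaks. Python 3.11.15 with pandas 2.3.3, numpy 2.4.6 and scipy 1.17.1 was used.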

Additional observations from a re-analysis of the deposited data

How the results depend on the processing

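The number of marked histone genes stayed within 1.5 times its value under every alternative tried, from 41 to 64 in H3.3K27M and from 40 to 59 in H3.3WT. In all, 39 of 54 recomputed values stayed within that limit or, for shares, within the counting interval, and 15 moved. The genes marked in 1 list alone depended most on the settings. Those of H3.3WT, 4 as reported, were 8 at a −log10 q of at least 5, 10 at a fold of at least 5, 10 with equal peak numbers and 8 with a window of 500 bp. They were 0 with a window of 3 kb and 0 when any base of a peak within 1 kb counted. Those of H3.3K27M, 7 as reported, were 7 at a fold of at least 5 and 2 with equal peak numbers, taking the strongest 6920 of each list. They were 10 at a −log10 q of at least 5, 9 with a window of 500 bp and 5 with a window of 3 kb. With any base of a peak within 1 kb they were 7, and with clustered genes alone 5. The share of peaks found in both lists was 48.9% in H3.3K27M and 51.2% in H3.3WT at a reciprocal overlap of 50%, and 60% in H3.3K27M and 62.8% in H3.3WT when summits had to lie within 200 bp. The background share of marked genes, histone genes included, was 4.95% in H3.3K27M and 4.69% in H3.3WT among genes of at most 1000 bp, and 16.7% in H3.3K27M and 15.3% in H3.3WT among genes of at most 5000 bp. The cause of these shifts was not tested beyond what each setting itself removes or admits. No paired analysis was possible because each genotype had 1 library and no replicate, and for the same reason no library could be left out. Weak peaks near the caller's threshold and genes with near-identical copies limit what the lists can show.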
